A study of Mus musculus with 24 samples.

Results

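The naive pluripotency network was described here by 10 genes, Klf2, Klf4, Klf5, Esrrb, Tfcp2l1, Tbx3, Nr0b1, Prdm14, Zfp42 and Tcl1. They were chosen by name among the 21909 gene symbols of the RNAseq tables, which compare mouse embryonic stem cells (ESCs) with NPCs, neural progenitor cells made from them. All 10 were present on a single line. RNAseq was done on 3 ESC and 3 NPC samples, 6 of the 24 samples of the study, and the nucleolus-associated domains (NADs) came as 1 list per cell type from Nucleolar-DamID, in which the methyltransferase Dam is brought to the nucleolus by an H2B-Dam-NoLS fusion and marks the DNA nearby. The ESCs were of the line E14, without a stated genetic change, and grew in 2i medium with 1000 U/ml LIF, the GSK3 inhibitor CHIR99021 (3 µM) and the MEK inhibitor PD0325901 (1 µM). The NPCs were made from ESCs within 8 days as embryoid bodies in medium with fetal calf serum, for which neither LIF nor an inhibitor is listed, with 2 µM retinoic acid in the last 4 days, and are described as Pax6-positive radial glia. The NADs came from lines that carry the Dam fusions, induced with doxycycline and Shield1, and not from the cells used for RNAseq. For the NPC NADs, embryoid bodies were dissociated to single cells and seeded again before induction. The labels call the 3 samples of a group independent culture dishes, so that all errors below are the spread between dishes of a single line, and cell type and any batch cannot be told apart.

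Naive pluripotency is the state of the preimplantation epiblast, which ESCs keep in 2i medium. LIF acts through the receptor chains Lifr and Il6st on the transcription factor Stat3, which activates Klf4 and Tfcp2l1, inhibition of GSK3 stabilizes beta-catenin and relieves Esrrb from the repressor Tcf7l1, and inhibition of MEK spares Klf2 from degradation and raises Prdm14 and Nanog. These factors bind each other's genes together with Pou5f1 (OCT4), Sox2 and Nanog, and the network is shut down when ESCs leave the naive state.

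Upstream sequences are shown for 4 members that stand for the different inputs of the network, namely Zfp42 as its classical marker, Klf4 and Tfcp2l1 as targets of Stat3, and Esrrb as the target of GSK3 inhibition. They are the 250 bases before the transcription start in RefSeq on GRCm38.p6, at chr8:43307010-43307259 (minus strand), chr4:55532476-55532725 (minus strand), chr1:118627695-118627944 (plus strand) and chr12:86360867-86361116 (plus strand), written in the direction of transcription. Capitals mark the letters of the motifs searched on both strands, and neighbouring or overlapping matches run together. The STAT motif was taken as TTCNNNGAA, and the octamer, which OCT4 binds, as ATGCNAAT. SOX factors were represented by ACAANG, and ESRRB by its monomer site AAGGTCA. The KLF motif was the core CACCC, and the GC box was the hexamer GGGCGG. For TCF factors CTTTGA was used, and for the TATA box TATAAA.
Zfp42: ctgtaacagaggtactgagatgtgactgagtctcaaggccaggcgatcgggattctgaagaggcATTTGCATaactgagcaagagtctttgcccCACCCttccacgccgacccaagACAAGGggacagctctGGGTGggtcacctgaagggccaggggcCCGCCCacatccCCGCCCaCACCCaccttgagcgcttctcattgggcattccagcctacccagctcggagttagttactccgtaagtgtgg
Klf4: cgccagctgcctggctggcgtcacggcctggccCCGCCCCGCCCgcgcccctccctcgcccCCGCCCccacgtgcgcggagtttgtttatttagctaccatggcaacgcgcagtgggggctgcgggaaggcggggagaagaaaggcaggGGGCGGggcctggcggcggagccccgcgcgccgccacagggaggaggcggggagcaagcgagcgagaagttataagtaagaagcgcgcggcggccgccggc
Tfcp2l1: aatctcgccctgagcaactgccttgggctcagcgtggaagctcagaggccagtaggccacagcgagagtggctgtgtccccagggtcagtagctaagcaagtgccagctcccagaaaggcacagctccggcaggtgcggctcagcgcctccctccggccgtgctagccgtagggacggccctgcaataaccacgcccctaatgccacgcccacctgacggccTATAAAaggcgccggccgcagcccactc
Esrrb: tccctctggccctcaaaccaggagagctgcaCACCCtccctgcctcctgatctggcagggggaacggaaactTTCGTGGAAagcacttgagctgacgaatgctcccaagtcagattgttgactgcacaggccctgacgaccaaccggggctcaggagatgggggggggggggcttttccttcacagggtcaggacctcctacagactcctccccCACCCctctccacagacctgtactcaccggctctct

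The reference table held 8 such sequences for 7 members, with 2 for Esrrb, and none for Klf5, Tbx3 and Prdm14. The octamer was found in the sequence of Zfp42 at position -186 from the start, and in 2.86% of all 32851 promoters. The STAT motif was found in 1 of the 8 sequences, the first of Esrrb, at position -178, against 7.02% of all promoters, and the ESRRB motif in none, against 4.08%. A CACCC stood in 6 of the 8, against 52.0% of all promoters, and a GC box in 4, against 32.7%. Klf4 carried 4 GC boxes, 32 CpG and 74.0% G or C, and Klf2 carried 29 CpG and 71.2%, whereas Zfp42 and Tcl1 carried 9 and 7 CpG (median of all promoters, 6 CpG and 52.4%). A TATA box was found in Tfcp2l1 at position -28 and in Nr0b1 at -32, and in 12.4% of all promoters. These matches describe the letters of a short window, and binding was not measured.

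In ESCs all 10 members were expressed. The deposited RPKM values (reads per kilobase and 1000000 reads) turned out to be scaled to the span of the gene in the genome, introns included, which for Esrrb is 26.5 times its exonic length and for Klf2 1.42 times. Levels of different genes were therefore compared as reads per kilobase of exons and 1000000 reads, called the exon-scaled level below, while fold changes of a gene are the same on both scales. Exon-scaled levels, and the ranks and family shares made from them, assume that reads were counted in exons. The authors describe exon coverage, but the scaling to gene span leaves this unsettled, most of all for genes with long introns such as Esrrb. Zfp42 had the highest exon-scaled level of the members in ESCs, 259 ± 18.5 (SD, n = 3), and lay above the other members in every sample. It was followed by Klf2 (120 ± 27.8), Esrrb (115 ± 32.4), Tfcp2l1 (111 ± 49.2), Klf4 (mean 77.6, samples 58.0 to 87.8) and Tcl1 (73.5 ± 17.5), whose neighbours in this order overlapped in range and did not differ beyond their spread. Nr0b1 (33.9 ± 1.13), Tbx3 (27.9 ± 7.08), Prdm14 (22.4 ± 1.02) and Klf5 (19.7 ± 8.19) were lower, with no overlap between Tcl1 and Nr0b1 or between Nr0b1 and Tbx3, whereas Tbx3, Prdm14 and Klf5 overlapped with each other. Without ESC replicate 3, which stood apart as described below, Zfp42 (248) was followed by Tfcp2l1 (139), Esrrb (133), Klf2 (104), Klf4 (87.4) and Tcl1 (63.4), and Klf5 (24.4) lay above Prdm14 (23.0), so that the ranks of Klf2, Tfcp2l1, Prdm14 and Klf5 rest on that sample. By RPKM as deposited, Esrrb ranked 9 of the members instead of 3, and Klf2 ranked 1.

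**Figure D1:**
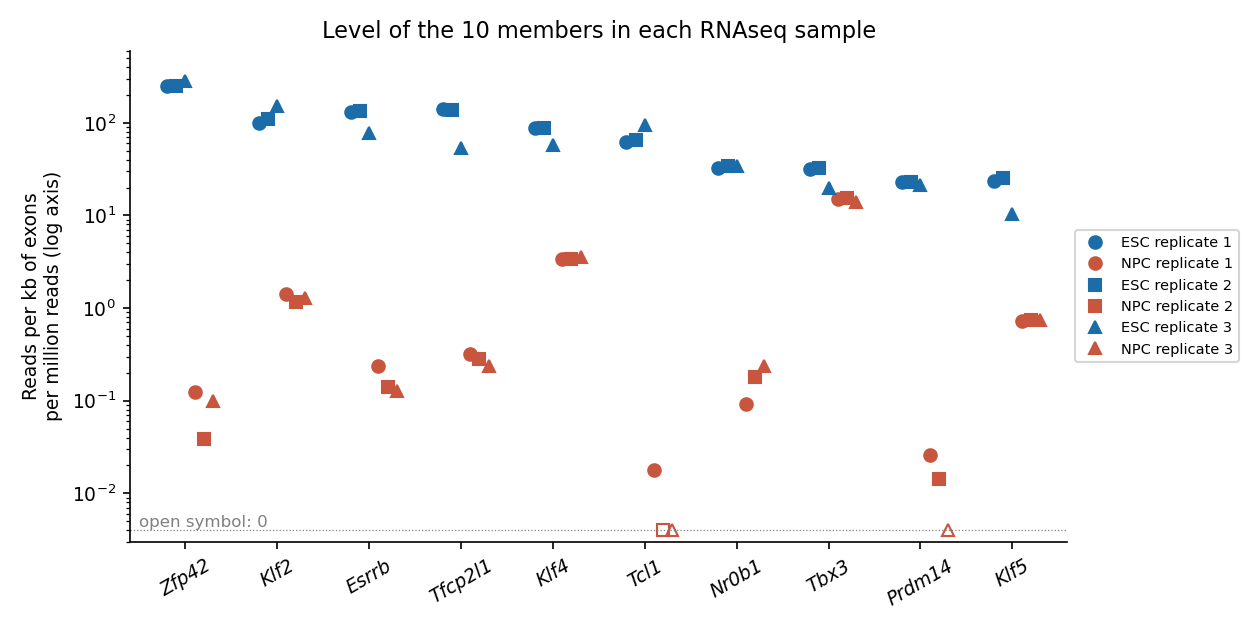
Exon-scaled level (reads per kilobase of exons and 1000000 reads, log axis) of the 10 members in the 3 ESC samples (blue) and the 3 NPC samples (red), with a symbol per replicate and open symbols for 0 reads. Members are ordered by their ESC mean, from Zfp42 (259) to Klf5 (19.7), and Tbx3 is the member whose ESC and NPC samples lie closest, at 19.8 to 32.6 against 14.1 to 15.4.

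In NPCs all 10 members were lower than in ESCs (limma on log2(RPKM + 1), 7907 genes tested, Benjamini-Hochberg adjusted p below 0.05), and none was higher. Of all genes tested, 2636 were lower (33.3%) and 2915 higher (36.9%), with a median log2 difference of 0.02. In all 10 members every NPC sample lay below every ESC sample, which was so for 38.5% of the genes tested. For 8 members RPKM was at least 1 in every ESC sample and below 1 in every NPC sample, a pattern of 7.04% of the genes tested. These 8 passed the filter on low values through ESCs alone and thus had to differ, and Klf4 and Tbx3 were above 1 RPKM in all samples. The size of the fall ranged from 1.90-fold for Tbx3 to 12063-fold for Tcl1, the latter resting on 1 NPC read.

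The deposited values step in whole reads, and from these steps the reads of each member in each sample were recovered, with totals between 27300000 and 34100000 reads per sample. Falls are given below as the ratio of ESC to NPC reads, each relative to the total of reads, with a 95% interval that covers counting error only. The log2 differences from limma are smaller than these falls for members with low RPKM, because 1 is added to every value. Those not given below were -3.91 ± 0.17 for Klf4, -2.48 ± 0.28 for Klf5, -4.09 ± 0.34 for Tfcp2l1, -2.37 ± 0.05 for Prdm14 and -4.53 ± 0.16 for Tcl1 (SE), with adjusted p of at most 0.000281.

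ESC replicate 3 stood apart from the other ESC samples, and this touches several members. Over the genes tested its log2 values correlated with those of ESC replicates 1 and 2 with r = 0.963 and 0.966, whereas replicates 1 and 2 correlated with r = 0.999 and the NPC samples with r of 0.996 to 0.999. Its departure followed gene length. In the fifth of genes with the shortest exonic length (1135 genes) the median ratio of replicate 3 to the mean of replicates 1 and 2 was 1.60, and in the fifth with the longest (1134 genes) it was 0.705. Among the members this ratio was 1.48 for Tcl1, 1.46 for Klf2, 1.13 for Zfp42, 1.03 for Nr0b1, 0.926 for Prdm14, 0.663 for Klf4, 0.618 for Tbx3, 0.579 for Esrrb, 0.421 for Klf5 and 0.388 for Tfcp2l1. Across genes the rank correlation of this ratio with exonic length was -0.641 over 5670 genes and -0.879 over the 10 members, as a description of a single sample. The labels name no difference in the making of this sample, and the cause was not tested.

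**Figure D2:**
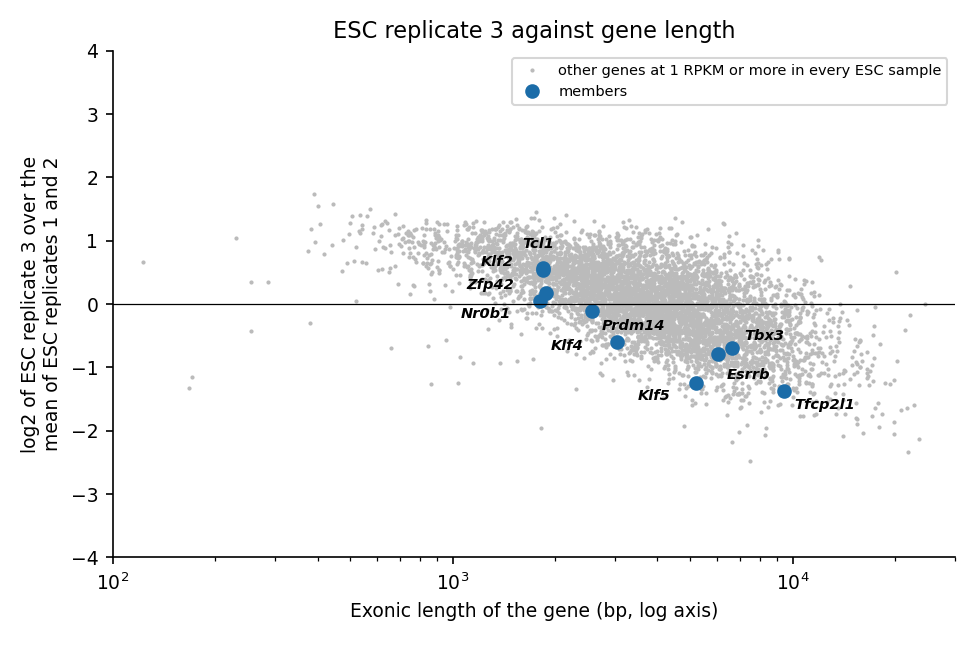
Log2 ratio of ESC replicate 3 to the mean of ESC replicates 1 and 2 (vertical axis) against exonic length in bp (log axis) for 5670 genes with at least 1 RPKM in every ESC sample (grey) and the 10 members (blue). Tfcp2l1 (9438 bp) and Klf5 (5201 bp) lie lowest, and Tcl1 (1845 bp) and Klf2 (1847 bp) lie highest among the members. Nr0b1 (1808 bp) and Zfp42 (1881 bp), of similar length to Tcl1 and Klf2, lie lower than these. Tbx3 (6624 bp) and Esrrb (6047 bp), though longer than Klf5, lie above it.

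Klf2, Klf4 and Klf5 encode zinc finger transcription factors of the Krüppel-like family, which bind GC-rich CACCC sequences and can partly replace each other in ESCs. Klf2 had 69.9, 76.6 and 107 RPKM in the ESC samples and 0.999, 0.811 and 0.909 RPKM in the NPC samples. Its reads fell 92.0-fold (80.4 to 106), and its log2 difference of -5.46 ± 0.17 (SE) was the lowest of the members on this scale (adjusted p = 5.15e-07, rank 15 of all genes tested). Klf4, which is also one of the factors that reprogram somatic cells, had 49.8, 50.3 and 33.2 RPKM in ESCs and 1.95, 1.92 and 2.06 RPKM in NPCs. Its fall was 22.6-fold (21.2 to 24.2), its groups did not overlap, and it stayed above 1 RPKM in all NPC samples. Klf5 had 7.53, 8.00 and 3.27 RPKM in ESCs and 0.233, 0.238 and 0.239 RPKM in NPCs, a fall of 26.9-fold (24.2 to 30.01). The low ESC replicate 3 made Klf5 one of the most variable members in ESCs, with a coefficient of variation of 41.6%, and without that sample its fall was 32.8-fold.

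Of the other 14 Klf genes 8 were tested, of which Klf6, Klf9, Klf15 and Klf16 were lower, Klf11 was higher and 3 were not called, beside 33.3% lower and 36.9% higher among all genes tested. Klf2, Klf4 and Klf5 together made up 56.0%, 57.0% and 67.0% of the exon-scaled level of all 17 Klf genes in the ESC samples and 6.27%, 6.09% and 6.36% in the NPC samples, without overlap (two-sided exact permutation test, p = 0.1, the smallest that 3 against 3 samples allow, and 0.114 adjusted over the 8 families compared here). These shares, like those of the other families below, are made from the same member values as the falls and are no separate support for them. The sum over the family was 328 to 389 in ESCs and 86.4 to 88.7 in NPCs. In NPCs Klf10 (17.5 to 18.8), Klf13 (12.7 to 13.6) and Klf3 (10.7 to 10.9) had the highest mean exon-scaled levels of the family, and Klf3 overlapped with Klf11 (9.72 to 11.2).

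Esrrb and Tfcp2l1, an orphan nuclear receptor and a factor of the CP2 family, can each sustain self-renewal when expressed in ESCs without LIF. Esrrb had 4.95, 5.10 and 2.91 RPKM in ESCs and 0.00889, 0.00526 and 0.00482 RPKM in NPCs, that is 69025 reads in the ESC and 91 reads in the NPC samples. The fall was 690-fold (562 to 858), although the log2 difference on the RPKM scale was only -2.37 ± 0.17 (SE, adjusted p = 2.89e-05), since its long gene span keeps its RPKM low. Tfcp2l1 had 23.0, 22.9 and 8.92 RPKM in ESCs and 0.0522, 0.0462 and 0.0395 RPKM in NPCs. Its 104834 ESC reads were the most of any member, its fall was 406-fold (357 to 463), and without ESC replicate 3 it was 502-fold. The ESC and NPC samples of both genes did not overlap, and the low ESC sample was replicate 3 in both.

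Their closest relatives were also compared. Esrrb took 96.3%, 96.1% and 92.4% of the exon-scaled level of the 3 Esrr genes in ESCs and 2.39%, 1.18% and 1.24% in NPCs. Esrra was between 4.99 and 6.33 in ESCs and between 4.73 and 7.23 in NPCs, overlapping ranges, while Esrrg was listed at 0 in ESCs and at 4.09 to 4.90 in NPCs. Tfcp2l1 took 77.8% to 81.4% of the level of Tfcp2l1, Tfcp2 and Ubp1 in ESCs and at most 0.802% in NPCs, where Ubp1 had 30.5 to 34.5. Tfcp2, the ubiquitous member of this family, was higher in NPCs, with 0.402, 0.396 and 0.296 RPKM against 1.29, 1.24 and 1.25 RPKM (log2 difference 0.73, adjusted p = 1.16e-05).

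Nr0b1 (DAX1) is an X-linked nuclear receptor without the usual DNA-binding domain that binds OCT4 and limits its activity. It had 14.1, 14.9 and 14.9 RPKM in ESCs, the smallest spread of the members at a coefficient of variation of 3.33%, and 0.0396, 0.0789 and 0.104 RPKM in NPCs, from 5, 9 and 14 reads. The fall was 196-fold (136 to 296) and the log2 difference -3.87 ± 0.07 (SE, adjusted p = 1.85e-07). The related Nr0b2 was at or below 0.0308 RPKM in all 6 samples, so that its level was within a few reads of 0.

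Tbx3, a T-box factor that connects PI3K signalling to Nanog in ESCs and also acts in limb, heart and endoderm, was the exception to the size of the fall. It had 14.8, 15.4 and 9.32 RPKM in ESCs and 7.12, 7.27 and 6.62 RPKM in NPCs. The groups did not overlap, but ESC replicate 3 was closer to the NPC samples than to the other ESC samples. The fall was 1.90-fold (1.85 to 1.95), 2.16-fold without ESC replicate 3 and 1.33-fold with ESC replicate 3 alone. The log2 difference was -0.79 ± 0.19 (SE, adjusted p = 0.00871). This call was lost when the deposited RPKM, scaled to gene span, were brought to a common sum in each sample (called TPM here). That scaling raised the median of all genes by 0.42 and gave -0.45 for Tbx3 (adjusted p = 0.237) with overlapping groups. The sums before it were 105011, 106892 and 141243 RPKM in ESC replicates 1 to 3 and 86130, 87366.5 and 86824 RPKM in the NPC samples. Tbx3 had the highest exon-scaled level of the members in NPCs, 14.9 ± 0.718, against 3.45 ± 0.126 for Klf4, which was next, and their NPC samples did not overlap. Klf2 (1.29 ± 0.133), Klf5 (0.744 ± 0.00903) and Tfcp2l1 (0.279 ± 0.0384) followed without overlap between neighbours, and Nr0b1 (0.171 ± 0.0747) and Esrrb (0.168 ± 0.0592) overlapped with each other, Nr0b1 also with Tfcp2l1.

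The close relatives of Tbx3 rose. Tbx2 had at most 0.0406 RPKM in ESCs and 7.63, 8.12 and 6.47 RPKM in NPCs (log2 difference 3.02 ± 0.09, adjusted p = 4.34e-07), and Tbx5, which lies 148 kb from Tbx3 on chromosome 5, had at most 0.00224 RPKM in ESCs and 1.58, 1.78 and 1.66 RPKM in NPCs (1.42 ± 0.04, adjusted p = 3.21e-07). Tbx4 was also called higher. Tbx3 thus made up 98.9% to 99.3% of the exon-scaled level of Tbx2, Tbx3, Tbx4 and Tbx5 in ESCs and 21.5% to 22.8% in NPCs. Beside these genes, markers of cells other than neural progenitors were present in the NPC samples. The 6 mesoderm markers summed to 51.8 to 56.5 RPKM in NPCs against 0.357 to 0.410 in ESCs, with Foxf1 at 29.1, 27.3 and 23.8 RPKM and Twist1 at 21.7, 27.2 and 26.0 RPKM, while Mesp1 and Hand1 were at most 0.0400 RPKM there. The 6 endoderm markers summed to 14.7 to 16.2 RPKM against 0.0834 to 0.115, led by Gata6 and Gata4, with Afp and Ttr at most 0.160 RPKM. The 8 neural progenitor markers summed to 86.9 to 94.8 against 41.6 to 51.2 RPKM, with 5 of 6 tested called higher and Pax6 at 1.55, 1.42 and 1.67 RPKM against at most 0.0167. These sums add RPKM scaled to gene span, so that they set NPCs against ESCs within a list and do not compare the lists with each other. The part of other cells in the level of Tbx3 was not tested, and in such bulk samples fewer cells that express a gene and less RNA per cell cannot be told apart.

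Prdm14, Zfp42 and Tcl1 were nearly absent from NPCs. Prdm14, a zinc finger protein that keeps FGF receptor signalling and DNA methyltransferases low in ESCs and is needed in primordial germ cells, had 4.25, 4.34 and 3.98 RPKM in ESCs. In NPCs it had 2, 1 and 0 reads, and the 0 in replicate 3 allows up to 0.00678 RPKM. With 5667 ESC reads against 3 NPC reads the ratio was 1719 (588 to 8340), a wide interval set by the few NPC reads. Zfp42 (REX1), a zinc finger protein related to YY1 and the usual reporter gene of the naive state, had 39.3, 39.1 and 44.3 RPKM in ESCs and 0.0195, 0.00616 and 0.0156 RPKM in NPCs, from 7, 2 and 6 reads. Its fall was 2906-fold (1762 to 5193) and its log2 difference -5.37 ± 0.08 (SE, adjusted p = 1.81e-07). Tcl1, a cofactor that activates AKT kinases and supports ESC proliferation, had 19.0, 19.8 and 28.6 RPKM in ESCs and 1, 0 and 0 reads in NPCs, where the zeros allow up to 0.0182 and 0.0154 RPKM. The ratio of 13253 ESC reads to 1 NPC read was 12063 (2165 to 476488).

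The families of these members differed in what was left in NPCs. Prdm14 made up 39.8% to 48.6% of the exon-scaled level of the 12 Prdm genes listed here in ESCs and at most 0.0626% in NPCs. The sum over these 12 genes, which need not be the whole family, was 43.8 to 57.0 in ESCs and 40.7 to 41.9 in NPCs. Zfp42 made up 91.8% to 94.3% of the level of Zfp42 with Yy1 and Yy2 in ESCs and at most 0.477% in NPCs, where Yy1 had an exon-scaled level of 25.7 to 27.6. Yy2 was listed at 0 in all samples. Tcl1 made up 97.2% to 99.2% of the level of its 7-gene family in ESCs, and in NPCs Mtcp1 made up nearly all of it, with 2.42, 2.72 and 2.60 RPKM against 0.817, 0.786 and 0.249 RPKM in ESCs (log2 difference 1.17, adjusted p = 0.000527). None of the 5 Tcl1b genes, which lie between 9.76 and 61.5 kb from Tcl1, exceeded 0.0758 RPKM in any sample.

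**Figure D3:**
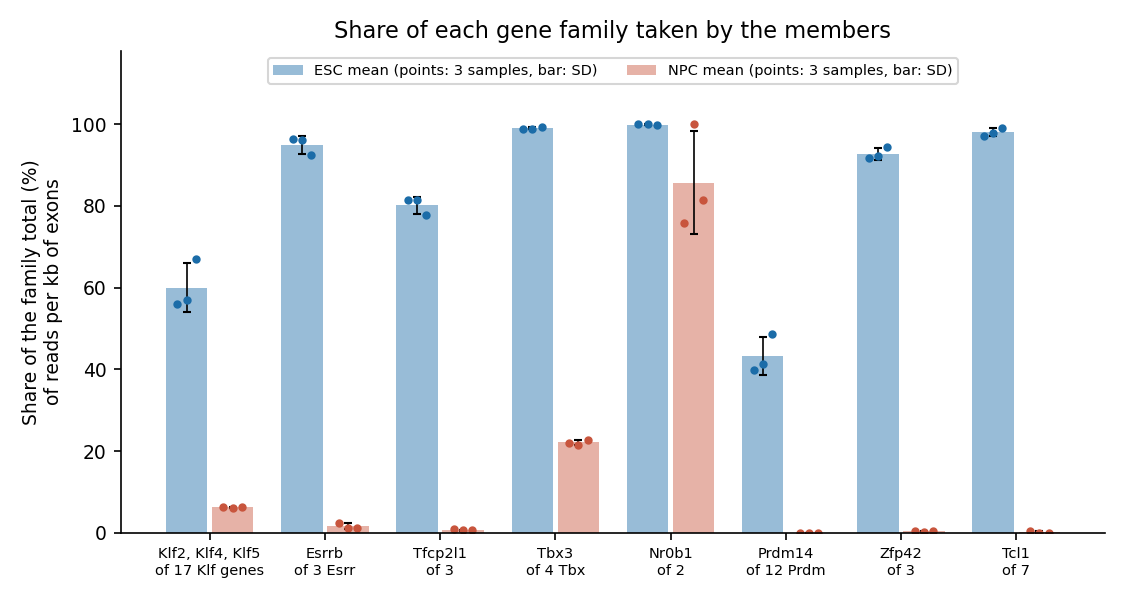
Share of the total exon-scaled level of the listed genes of each family, in percent, that the members took in ESCs (blue) and NPCs (red), as means of 3 samples with SD and a point per sample. In 7 families the ESC and NPC samples do not overlap, with means of 60.0% and 6.24% for the Klf genes, and Nr0b is a family with very few reads in NPCs, where Nr0b1 keeps 75.8% to 100% of a total of at most 0.295.

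The falls could be ordered only in part. Taken by reads, the order was Tcl1, Zfp42, Prdm14, Esrrb, Tfcp2l1, Nr0b1, Klf2, Klf5, Klf4 and Tbx3. The counting intervals of neighbours overlapped among Tcl1, Zfp42, Prdm14 and Esrrb, and were apart for each pair from Esrrb to Tbx3, by the narrowest margin for Klf5 and Klf4, whose bounds both round to 24.2. These intervals leave out the spread between dishes. With ESC replicate 3 alone, Tfcp2l1 fell less than Nr0b1 (195-fold against 200-fold) and Klf5 less than Klf4 (13.8-fold against 16.8-fold). When the log2 ratio of neighbours, with 0.5 read added to each count, was compared between the ESC and NPC samples, the ratios did not overlap for 6 of the 9 pairs (two-sided exact permutation test, p = 0.1, the smallest possible, and 0.15 adjusted over the 9 pairs), and they overlapped for Zfp42 with Prdm14, Tfcp2l1 with Nr0b1 and Klf5 with Klf4. The step from Klf4 to Tbx3 was the widest, with falls that differed by 3.59 on the log2 scale.

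**Figure D4:**
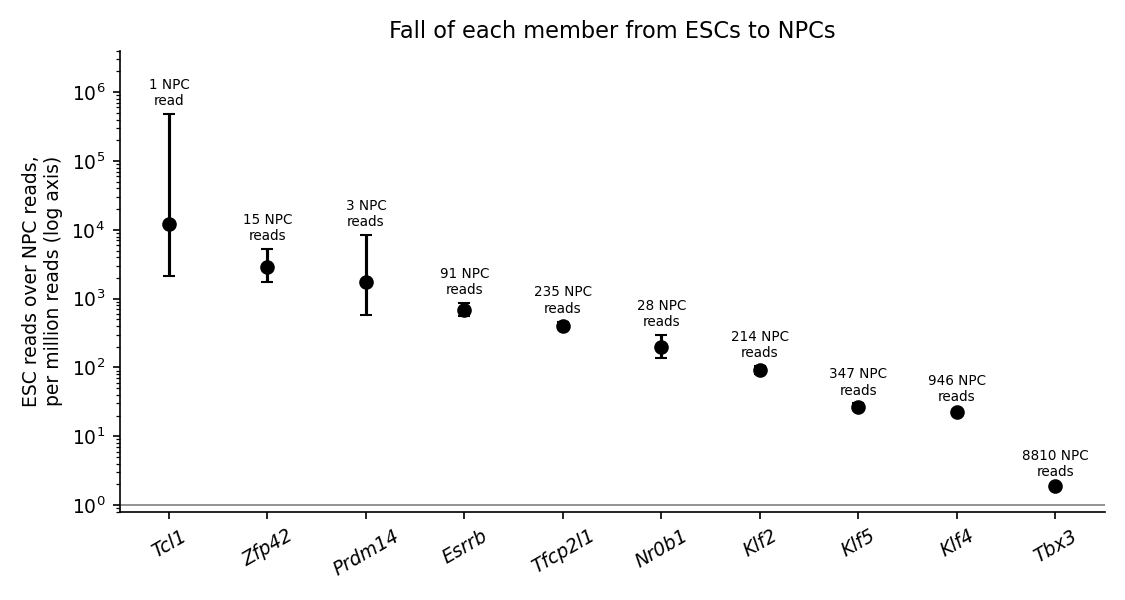
Ratio of ESC to NPC reads, relative to the total of reads, for each member (log axis), with 95% counting intervals and the number of NPC reads above each point. The ratio runs from 1.90 for Tbx3 to 12063 for Tcl1, whose interval of 2165 to 476488 rests on 1 NPC read.

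Other genes of the pluripotency network fell with the members. Of 28 listed, 25 were tested, 24 were lower in NPCs and none was higher, with a median log2 difference of -3.89. Over all genes tested 33.3% were lower and 36.9% higher, with a median of 0.02. Most of the 24, among them Pou5f1, Nanog and Dppa5a, were below 1 RPKM in every NPC sample. They passed the filter on low values through ESCs alone and thus had to be lower, so that the count is no independent support. Dppa5a, a small RNA-binding protein of ESCs, had 1307, 1294 and 3131 RPKM in ESCs and 0.354, 0.130 and 0.110 RPKM in NPCs. Pou5f1 had 130, 136 and 202 RPKM and 0.0558, 0.0386 and 0.0651 RPKM, and Nanog 100.7, 98.9 and 94.8 RPKM and 0.0696, 0.0667 and 0.0260 RPKM. Sox2, which is also a factor of neural progenitors, stayed at 6.82, 8.56 and 9.91 RPKM after 157, 154 and 142 RPKM in ESCs. Tet2 was the single tested gene without a call, with 2.70, 2.64 and 0.616 RPKM in ESCs and 2.11 to 2.45 RPKM in NPCs, and it was called lower without ESC replicate 3.

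Genes of the formative and primed states, which follow the naive state in the embryo, were called in both directions. Of 16 listed, 10 were tested, 5 were lower and 5 higher in NPCs, with a median log2 difference of 0.29, beside 33.3% lower and 36.9% higher among all genes tested. Nodal, a ligand of the TGF-beta family, had 10.9, 10.9 and 11.5 RPKM in ESCs and at most 0.0585 RPKM in NPCs, and Dnmt3b, a DNA methyltransferase, had 4.03, 4.35 and 2.78 RPKM in ESCs and 0.537, 0.557 and 0.578 RPKM in NPCs. On the log2(RPKM + 1) scale Sox3 and Sall2 rose most, from at most 0.341 to 7.01, 8.89 and 10.5 RPKM and from at most 0.559 to 9.66, 8.57 and 9.07 RPKM. Fgf5, the classical marker of the formative state, was at most 0.00519 RPKM in ESCs and 0.328 RPKM in NPCs and was not tested.

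Of the 44 family relatives of the members, 17 were tested, 4 were lower and 7 higher, with a median log2 difference of 0.23. These counts, like those of the partners below, lie near the 33.3% lower and 36.9% higher of all genes tested and are no result about the list. On the log2(RPKM + 1) scale the largest falls were those of Klf15 (2.78, 3.07 and 2.63 RPKM in ESCs, 0.204, 0.194 and 0.232 RPKM in NPCs) and Klf16 (7.97, 8.71 and 6.77 RPKM against 2.08, 2.66 and 2.36 RPKM), and the largest rises those of Tbx2 and Tbx5. Among 17 partners and signal links, 12 were tested, 5 were lower and 3 higher, with a median log2 difference of -0.20 that turned to 0.16 when samples were scaled to TPM, with 3 lower and 5 higher. Without ESC replicate 3, 7 were lower and 5 higher. Socs3, the feedback inhibitor of LIF signalling, had 28.8, 30.3 and 27.9 RPKM in ESCs and 8.11, 8.55 and 8.65 RPKM in NPCs, and Dnmt3l, a cofactor of DNA methyltransferases, fell from between 1.76 and 2.41 RPKM to at most 0.00765 RPKM. Akt1, a kinase that Tcl1 binds, rose from 1.90, 2.06 and 1.72 to 11.9, 12.8 and 13.0 RPKM, and Ctnnb1, which encodes beta-catenin, from 19.9, 20.4 and 13.3 to 38.8, 34.5 and 35.3 RPKM.

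The genes whose values in the 6 samples were nearest to the median of the members were Triml1, Triml2, Fgf4, Tuba3a and Pnma5. Their root-mean-square differences were 0.14, 0.19, 0.19, 0.26 and 0.28 on the log2(RPKM + 1) scale. This measure takes in the level, scaled to gene span, as well as the pattern. Triml1 and Triml2 lie next to Zfp42 on chromosome 8, at 154 and 101.2 kb. Triml1 had 15.7, 14.3 and 12.9 RPKM in ESCs and at most 0.00314 RPKM in NPCs, and Triml2 had 18.5, 16.6 and 16.1 RPKM and at most 0.00825 RPKM. The other 4 genes of the tables within 500 kb of Zfp42, Adam26b, Adam26a, Gm5346 and Adam34, were listed at 0 in all 6 samples. This neighbourhood was looked at after the values of Triml1 and Triml2 had been seen. Around the other members, tested genes within 500 kb were called lower, higher or neither. Klf2 had 12 tested neighbours, of which 4 were lower and 3 higher, Prdm14 had 3, of which 2 were lower and 1 higher, and Tfcp2l1 had 3, of which 1 was lower and 1 higher. Klf5 had 3, of which 1 was lower, Klf4 had 2, of which 1 was higher, and the single tested neighbour of Tbx3 was higher. Esrrb had 4, all higher, and Tcl1 had 5, of which 4 were higher and none was lower, beside 36.9% higher among all genes tested. Nr0b1 had none.

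None of the members lay in an ESC NAD. Of the 21402 genes with a position, expressed or not, 27.1% did, and the share among genes expressed in ESCs was not taken. The nearest NAD was between 28.2 kb (Tfcp2l1) and 2015 kb (Tbx3) from the gene. In NPCs Klf2 and Zfp42 did, as did 21.6% of all genes. Klf2 (chromosome 8, 72319033 to 72321656, GRCm38) lay wholly in an NPC NAD from 72300207 to 72642801 with a score of 0.0979, rank 62 of 1447, 18826 bp from its edge. Zfp42 (chromosome 8, 43295063 to 43306980, minus strand) overlapped an NPC NAD from 42999946 to 43300149 with 42.7% of its length, at its 3′ end. Its start lay 6831 bp outside. The authors mapped NADs at a resolution coarser than 28.2 kb and than either gene, so that the split of Zfp42 and such short distances are not resolved. Both genes are on chromosome 8, of which NADs covered 77.6% in NPCs and 19.5% in ESCs, and where 70.9% of the genes of the tables overlapped a NAD in NPCs. Triml1 and Triml2 overlapped NADs in both cell types and were expressed in ESCs. The other 8 members overlapped no NAD in either cell type. A relation between NAD position and expression was not tested. The lists hold 1 score per NAD for both experiments, so that no replicate error can be given for a position.

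**Figure D5:**
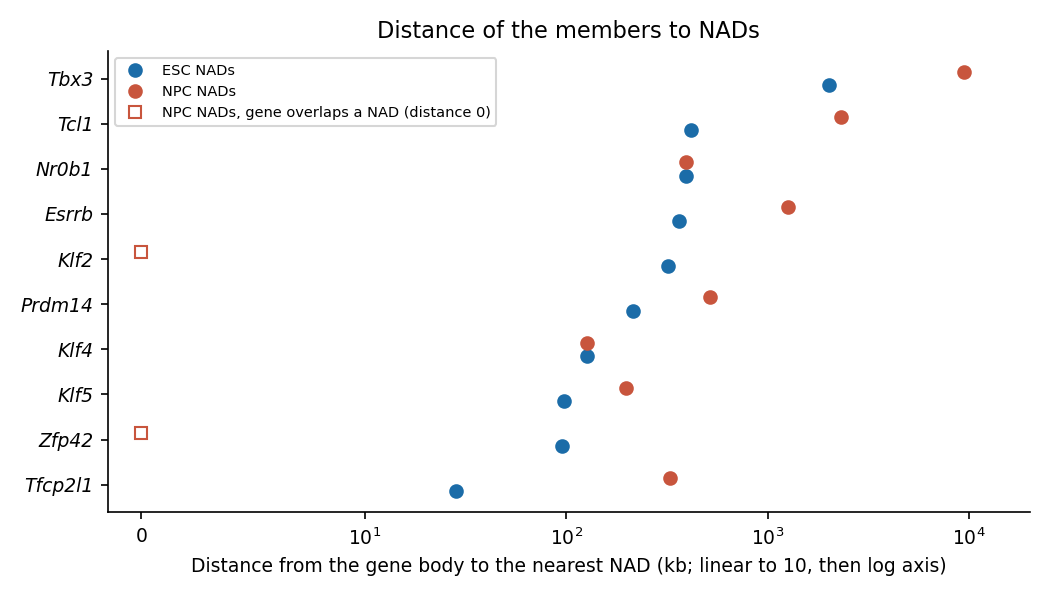
Distance in kb from each member's gene body to the nearest NAD of ESCs (blue) and NPCs (red), linear up to 10 kb and logarithmic beyond. Open squares at 0 mark Klf2 and Zfp42, which overlap NPC NADs, and Tbx3 is the member farthest from NADs in both cell types, at 2015 and 9471 kb.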

How the data were processed

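RNAseq of polyA RNA from 3 ESC and 3 NPC samples and 1 NAD list per cell type were used, and the other samples were not analysed here. The authors removed rRNA reads, trimmed, aligned to mm10 and deposited RPKM per gene. Library kit, instrument and aligner are named differently in labels and methods, so the use of strand is not settled, and neither the annotation nor the handling of multi-mapping reads is stated. The NAD score was deposited by the authors as 1 value per NAD for both experiments, from H2B-Dam-NoLS over H2B-Dam.

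The tables held 22064 lines and 21909 symbols. The steps between low RPKM values matched whole reads over the gene span of GENCODE M21 in 59.3% of 2249 genes examined (within 0.1% of a common library total), and over exonic lengths in 3.20%. This gave totals of 34100000, 33700000 and 30800000 reads in ESC and 30200000, 27300000 and 32300000 reads in NPC replicates 1 to 3. Exon-scaled levels use the merged exons of GENCODE M21. Tbx3 overlaps the antisense gene Tbx3os1 over 697 bp.

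Genes with at least 1 RPKM in at least 3 of 6 samples were tested as log2(RPKM + 1) with limma 3.58.1 (lmFit, eBayes with trend) in R 4.3.3 and called at an adjusted p below 0.05. Count intervals are exact 95% intervals of the ratio of 2 Poisson counts. The planned comparison of proteins was not made. Other steps used Python 3.11.15. Members, lists and tests were chosen with earlier results of these data known. Named were the 10 members, Pou5f1, Sox2, Nanog and Pax6, in each list the 2 called genes that rose most and the 2 that fell most by log2 difference, and the 5 genes nearest in their values. Other genes, such as Tet2, Esrra, Klf6, Klf10, Mtcp1 and the cell type markers shown beside Tbx3, were named after their values were seen. Of the marker lists, those of neurons, endothelium and blood, germ cells, epithelium, trophectoderm and neural crest summed to 8.29 to 9.91, 6.88 to 7.45, 0.767 to 0.889, 52.2 to 54.9, 2.37 to 2.55 and 2.57 to 2.90 RPKM in NPCs. In ESCs they summed to 11.1 to 14.5, 0.0705 to 0.128, 10.1 to 12.0, 4.88 to 6.85, 2.15 to 2.41 and 7.97 to 9.94 RPKM. Because RPKM were scaled to gene span, these sums do not compare the lists with each other.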

Additional observations from a re-analysis of the deposited data

How the results depend on the processing

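Of 160 alternative fold changes of the members, 16 for each, 159 kept their direction and call, none reversed, and 1 lost its call. This was Tbx3 with samples scaled to TPM (sum of 1000000), at a log2 difference of -0.45, where 9 members were called. Over its alternatives, the adjusted p of Tbx3 reached at most 0.237. The 8 members that passed the filter on low values through ESCs alone had to differ, so that their kept calls are no separate support. Over all genes, no filter gave 4247 lower and 7294 higher genes, and scaling to TPM gave 1607 lower and 3549 higher, a share of lower genes of 31.2% against 47.5%. Median-of-ratios scaling gave a share of 57.9%. These 2 scalings moved the median log2 difference of all genes by 0.42 and -0.21. Relative read counts with a filter of their own, chosen after seeing the data like all alternatives in reads and the alternatives of the lists, gave 6046 higher. Leaving out single samples gave 2119 to 3487 lower and 2533 to 3464 higher genes, with all 10 members lower each time. The highest counts came without ESC replicate 3. For partners and signal links, scaling to TPM gave 3 lower and 5 higher genes, and 5 were higher without ESC replicate 3. The median log2 difference of the formative and primed genes turned to -0.08 under quantile normalization. Counted by transcription start, 1 member lay in an NPC NAD. The correlations of same-numbered deviations from the group means were 0.11, -0.08 and 0.03. They cannot decide whether replicate numbers pair the samples, since ESC replicate 3 stood apart and weighs on all ESC deviations. A replicate block gave 2493 lower and 2772 higher genes and 10 members lower, so that it changed no call of a member. All 10 members changed rank by ESC level when scaled to exons instead of gene span, which rests on reads having been counted in exons. With 3 samples a group no exact permutation p can go below 0.1, and few NPC reads limit the falls of Prdm14, Zfp42 and Tcl1.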
